A study of Mus musculus with 6 samples.

Results

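Lysyl oxidases, the collagen prolyl and lysyl hydroxylases and the collagen chaperone gene Serpinh1 are described here in mouse embryonic stem cells that had begun to differentiate and were sorted by the redox state of their nuclei. The genes were chosen by name, as the 10 rows called Lox, Loxl1, Loxl2, Loxl3, Loxl4, P4ha1, P4ha2, Plod1, Plod2 and Serpinh1 among the 31265 genes of the table, and all 10 were found. The cells were wild-type E14Tg2a cells carrying Grx1-roGFP2 in the nucleus, a fluorescent sensor that follows the glutathione redox state, and they were grown for 5 days as embryoid bodies in hanging drops, in medium that held neither 2i nor LIF. From each of 3 populations, called A, B and C, the 10% most oxidized and the 10% most reduced live cells were collected, which gave 3 oxidized and 3 reduced poly(A) libraries. No other treatment or genotype separates the groups, all 6 libraries carry the sensor, and the comparison asks how cells that differ in nuclear redox state differ in their transcripts. The labels do not tell whether A, B and C were separate cultures, and the p-values therefore cover only the spread among them.

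Collagen chains are modified in the endoplasmic reticulum before they fold into a triple helix. Prolyl 4-hydroxylases stabilise the helix, lysyl hydroxylases make the hydroxylysines that carry sugars and take part in cross-links, and both need iron, oxygen, 2-oxoglutarate and ascorbate. Serpinh1 encodes HSP47, a chaperone that binds the folded procollagen helix. Outside the cell, copper-dependent lysyl oxidases turn lysines of collagen and elastin into aldehydes that cross-link the fibres, and each reaction cycle releases hydrogen peroxide.

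The lysyl oxidases share a copper-binding stretch, whose codons are shown because it is the part of the transcript that marks a gene as a member of the family, and because Loxl2 and Loxl4 are nearly alike in it while their levels differ widely. The 33 bases spell tryptophan, any residue, tryptophan, histidine, any residue, cysteine, histidine, any residue, histidine, tyrosine and histidine, and the capitals mark the 4 histidine codons. Each was read 5′ to 3′ on the coding strand of a GENCODE vM21 transcript (build GRCm38) and crosses 1 exon junction, so the coordinates include an intron.
Loxl1 (chr9:58293720-58294381, minus strand, exons 3 and 4): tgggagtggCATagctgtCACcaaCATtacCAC
Loxl2 (chr14:69682316-69689037, plus strand, exons 10 and 11): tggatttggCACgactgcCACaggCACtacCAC
Loxl3 (chr6:83049995-83050125, plus strand, exons 10 and 11): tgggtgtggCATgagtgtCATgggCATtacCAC
Loxl4 (chr19:42598807-42599899, minus strand, exons 11 and 12): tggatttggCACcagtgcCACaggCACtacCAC
The stretches of Loxl2 and Loxl4 were identical at 31 of 33 bases, and the other pairs at 21 to 25.

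Oxidized libraries A and B stood apart from the other 4 libraries in abundant transcripts, so differences that move with them are also given without both. That fit keeps oxidized C alone against 3 reduced libraries, and it takes the lone library to vary as the reduced ones do, so its p-values rest on the spread of 1 group. A locus annotated as ribosomal RNA (CT010467) held 1410 and 1736 FPKM (fragments normalised by transcript length and by library size) in oxidized A and B, against 34116 to 43825 FPKM in the other libraries. The mitochondrial transcript mt-Co3 was at 2710 and 1525 FPKM there and at 112 to 199 FPKM elsewhere. Depth, estimated from the steps of low values, was 1.58e+07, 1.52e+07 and 1.18e+07 fragments for oxidized A, B and C, against 1.79e+07, 1.70e+07 and 1.25e+07 for reduced libraries A, B and C. Markers of pluripotent cells summed to 277 to 606 FPKM in oxidized libraries and 555 to 767 FPKM in reduced libraries, and none was at 0. Of the 6 markers 5 were lower on the mean. In 3 every oxidized library lay below every reduced one, as in 8.81% of the 12191 genes averaging 1 FPKM or more. Among the 6, 1 was called lower, Tdgf1, at 41.8 FPKM in oxidized cells, against 129 FPKM in reduced cells (limma adjusted p = 0.0323, with the population block 0.0564). Of the same 12191 genes 0.279% were called lower.

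All 10 genes had the higher mean FPKM in oxidized cells, and 1 of them, Loxl2, rose past the test threshold. The means of Loxl4 were almost equal, at 0.337 FPKM in oxidized cells, against 0.330 FPKM in reduced cells. The oxidized mean of Lox rested on oxidized B alone. The test was limma on log2(FPKM + 1), without pairing by population, with p-values adjusted over 12191 genes that averaged 1 FPKM or more. A gene was called below an adjusted p of 0.05. With the population as a block, which pairs the libraries, 0 of the 10 genes were called higher. Of the 10 genes, 7 passed the filter on the mean, and Lox, Loxl3 and Loxl4 did not. Among all tested genes 0.796% were called in either direction and 0.517% were called higher in oxidized cells. A positive log2 difference was found in 59.3% of all tested genes and in all 7 tested here, and the median over all tested genes was 0.08. In 4 of the 10 genes (Loxl1, Loxl2, Loxl3 and Plod1) every oxidized library lay above every reduced library, which was so for 10.3% of the 28179 genes above 0 in any library and for 16.2% of tested genes. None of the 10 had every oxidized library below every reduced one, which was so for 8.81% of tested genes.

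**Figure D1:**
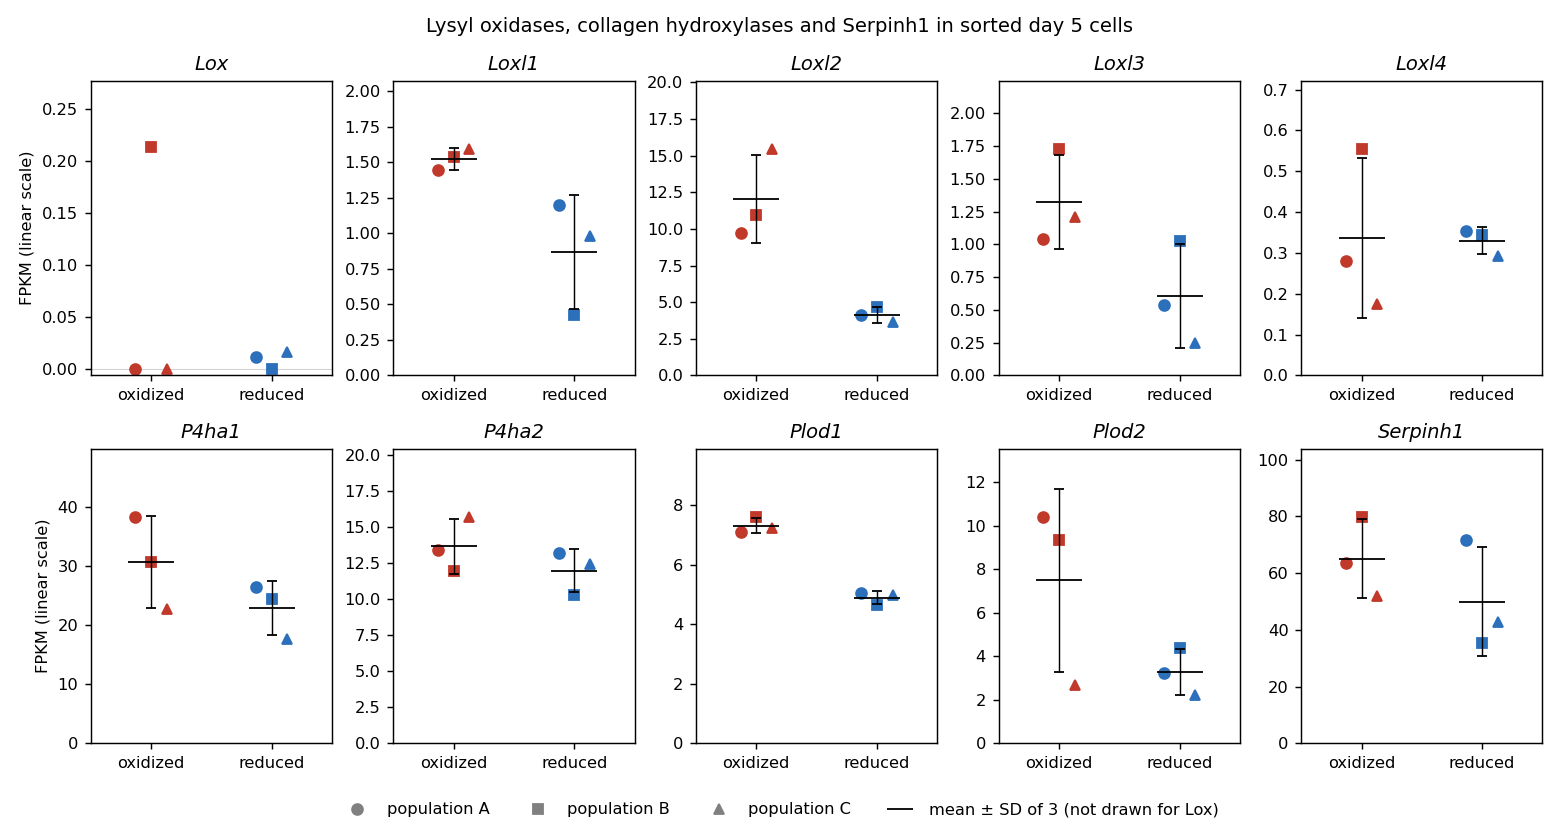
FPKM (linear scale, one scale per panel) of each gene in the 3 oxidized (red, left) and 3 reduced (blue, right) libraries. Shapes mark the population, the wide line is the mean and bars are the SD of 3 libraries, not drawn for Lox. The groups do not overlap for Loxl1, Loxl2, Loxl3 and Plod1, while Serpinh1, P4ha1, P4ha2 and Plod2 overlap between groups.

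Loxl2 (chr14:69609068-69695834, plus strand) encodes a lysyl oxidase with scavenger receptor domains that is known to act on collagen IV of basement membranes. It was at 9.72, 10.96 and 15.5 FPKM in oxidized libraries A, B and C, against 4.11, 4.65 and 3.62 FPKM in reduced libraries A, B and C. The groups did not overlap, and the lowest oxidized library stood clear of the highest reduced one. The means were 12.05 ± 3.01 FPKM in oxidized cells and 4.13 ± 0.518 FPKM in reduced cells (SD, n = 3 each), a ratio of 2.92. The difference on the log2(FPKM + 1) scale was 1.33 (SE 0.20, 95% interval 0.88 to 1.78, limma adjusted p = 0.0330). It was the only one of the 10 genes marked significant in the authors' deposited table, with a q of 5.25446e-06, where 1.23% of all genes are marked significant and up.

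The call of Loxl2 was lost in the fit with the population as a block (adjusted p = 0.0753), in which 0.0328% of tested genes were called, and without a filter on low values (0.193). Leaving out any library other than oxidized C raised the limma adjusted p to between 0.0603 (reduced C left out) and 0.170 (reduced A left out). Without oxidized C it was 0.00598, in a fit that called 1185 of the 12191 tested genes, against 97 in the main fit. Without oxidized A and B together, which leaves 1 oxidized library, the difference was 1.69 (adjusted p = 0.0863). In all of these the difference stayed between 1.15 and 1.69. As in any bulk sample, more cells of a type that holds the transcript and more transcript per cell cannot be told apart here. An antisense gene, Gm27177, overlaps Loxl2, and 45.0% of the 50-base stretches of Loxl2 transcripts also occur in another gene's transcripts. The labels and headers do not state a strand setting for the counting, so fragments of the pair cannot be told apart, and Gm27177 was at 0.108 FPKM in oxidized cells, against 0.101 FPKM in reduced cells.

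Loxl1, which is known for cross-linking elastin, was the lysyl oxidase next in level (chr9:58287738-58313186, minus strand). It held 1.44, 1.54 and 1.59 FPKM in oxidized libraries A, B and C, against 1.20, 0.422 and 0.979 FPKM in reduced libraries A, B and C. The oxidized libraries lay close together and above all reduced ones, although oxidized A was only 0.15 above reduced A on the log2 scale. The log2 difference was 0.46 (SE 0.20, limma adjusted p = 0.252, 95% interval 0.0045 to 0.91), so Loxl1 did not pass the test. Without reduced B, its lowest library, the difference was 0.27.

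Loxl3 (chr6:83034173-83052562, plus strand), another lysyl oxidase with scavenger receptor domains, was at 1.04, 1.73 and 1.21 FPKM in oxidized libraries A, B and C and at 0.537, 1.03 and 0.248 FPKM in reduced libraries A, B and C. Oxidized A and reduced B were nearly equal, so the groups barely missed overlapping. Its mean over the 6 libraries was 0.964 FPKM, under the filter, so it was not tested. It overlaps Htra2 on the other strand, with 8.54% of its 50-base stretches shared, and Htra2 was at 17.1 FPKM in oxidized cells, against 13.3 FPKM in reduced cells.

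Loxl4 (chr19:42593982-42612813, minus strand) held 0.280, 0.554 and 0.175 FPKM in oxidized libraries A, B and C, against 0.354, 0.345 and 0.291 FPKM in reduced libraries A, B and C. The groups overlapped, and the oxidized libraries held both the highest and the lowest values. Lox (chr18:52516067-52529867, minus strand), the enzyme that gave the family its name, was listed at 0 in oxidized A and C and at 0.213 FPKM in oxidized B. In reduced libraries it was at 0.0110 FPKM in A, 0 in B and 0.0164 FPKM in C. Lox was thus at or near 0 in all libraries but oxidized B, and at these levels a difference between the groups was not detectable.

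Loxl2 held most of the lysyl oxidase transcript. It made up 77.9%, 73.1% and 83.9% of the summed FPKM of the 5 genes in oxidized libraries A, B and C, against 66.2%, 72.2% and 70.2% in reduced libraries A, B and C. These groups did not overlap, but oxidized B lay within 1 percentage point of reduced B. The summed FPKM was 12.5, 15.0 and 18.4 in oxidized libraries and 6.22, 6.45 and 5.15 in reduced libraries.

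**Figure D2:**
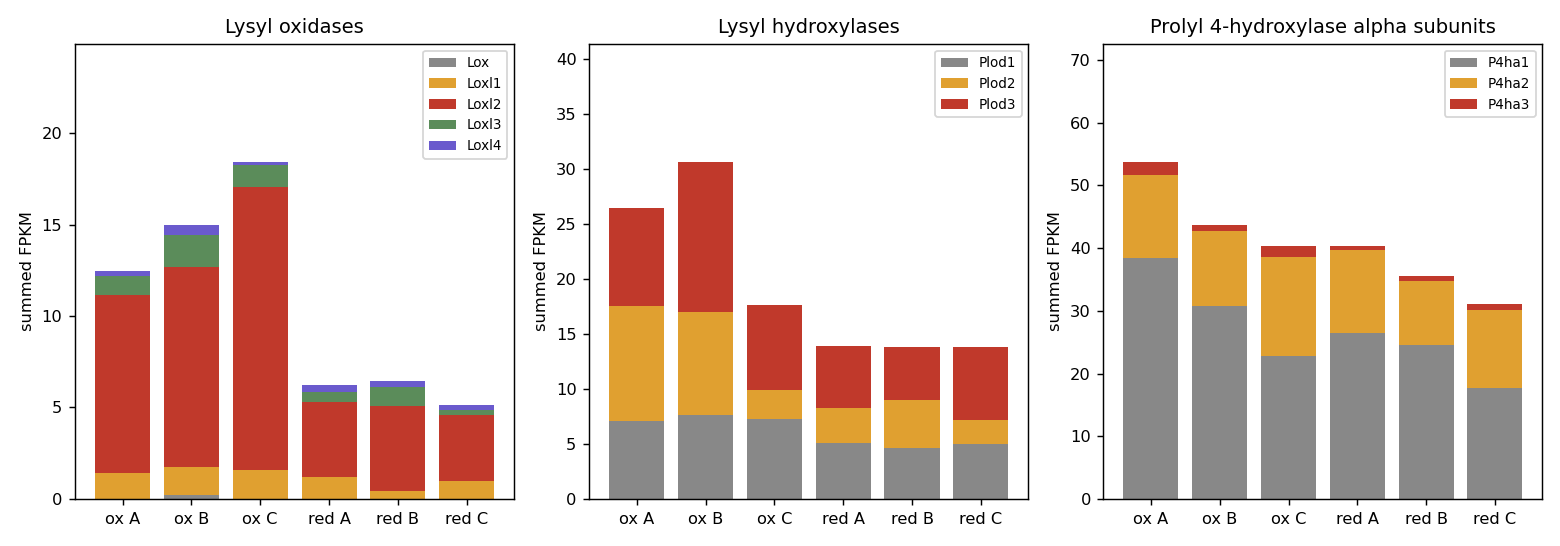
Summed FPKM of the lysyl oxidases (left), the lysyl hydroxylases Plod1 to Plod3 (middle) and the alpha subunits P4ha1 to P4ha3 (right) in each library, oxidized before reduced, with each gene as a part of its bar. Loxl2 fills 66.2% to 83.9% of each lysyl oxidase bar, and the Plod bars of the reduced libraries are almost equal, at 13.8 to 13.9 FPKM.

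Ratios of Lox, Loxl1 and Loxl3 to Loxl2 were tested over libraries by an exact permutation test, two-sided, for which the smallest p that 3 against 3 can give is 0.1. With log2(FPKM + 1), the ratio of Loxl1 to Loxl2 was -2.35 ± 0.28 in oxidized and -1.48 ± 0.45 in reduced libraries, a difference of -0.87 (exact p = 0.1, adjusted over 5 isoenzyme ratios 0.167). The ratio of Loxl3 to Loxl2 differed by -0.78 (exact p = 0.1, adjusted 0.167) and that of Lox to Loxl2 by -1.25 (exact p = 0.1, adjusted 0.167). Since Loxl1, Loxl3 and Lox are low, these values rest on the pseudocount. Without it the differences were -0.58 for Loxl1 (exact p = 0.4) and -0.20 for Loxl3 (exact p = 0.8), and for Lox no ratio could be formed because of its zeros. The ratio of Loxl4 to Loxl2 was not tested. Loxl4 made up 2.24%, 3.70% and 0.952% of the summed lysyl oxidase FPKM in oxidized libraries A, B and C, against 5.70%, 5.35% and 5.65% in reduced libraries A, B and C.

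P4ha1 and P4ha2 encode the catalytic alpha subunits of the prolyl 4-hydroxylases, each of which pairs with P4hb. P4ha1 (chr10:59323296-59373304, plus strand) was at 38.4, 30.8 and 22.8 FPKM in oxidized libraries A, B and C, against 26.5, 24.5 and 17.7 FPKM in reduced libraries A, B and C. The groups overlapped, yet within each population the oxidized library was the higher, by 0.52, 0.32 and 0.35 on the log2 scale in A, B and C. The log2 difference over all libraries was 0.39 (SE 0.23, 95% interval -0.12 to 0.91, limma adjusted p = 0.366). It ran between 0.22 and 0.58 when single libraries were left out, and oxidized C alone lay 0.014 above the mean of the 3 reduced libraries.

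P4ha2 (chr11:54100095-54131665, plus strand) was at 13.4, 11.9 and 15.7 FPKM in oxidized libraries A, B and C and at 13.2, 10.3 and 12.4 FPKM in reduced libraries A, B and C. The groups overlapped, and in population A they were almost equal. The log2 difference was 0.18 (SE 0.17, 95% interval -0.21 to 0.56, limma adjusted p = 0.590). It was 0.078 without oxidized C and 0.080 without reduced B, and 0.37 without oxidized A and B together. P4ha1 was lowest in population C in both groups, while P4ha2 had its highest oxidized value there. P4ha1 made up 71.4%, 70.6% and 56.6% of the summed alpha subunits in oxidized libraries A, B and C, against 65.6%, 69.0% and 57.1% in reduced libraries A, B and C. The log2 ratio of P4ha1 to P4ha2 differed by 0.22 between groups, less than its spread over libraries (exact permutation p = 0.5, adjusted 0.6), and it ran between 0.023 and 0.51 when single libraries were left out.

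Both alpha subunit genes are known to answer to hypoxia-inducible factors, whose core motif is ACGTG, and their promoters are shown because P4ha1 and P4ha2 differ in how their levels ran over the populations. The windows come from RefSeq (build GRCm38.p6) and run 5′ to 3′ on the gene's strand from 250 bases before to 50 bases after the RefSeq start. Capitals mark each ACGTG, or CACGT where it lies on the other strand. For P4ha2 the RefSeq start lies downstream of the GENCODE start given above, so its whole window falls inside that gene.
P4ha1 (chr10:59323046-59323345, plus strand): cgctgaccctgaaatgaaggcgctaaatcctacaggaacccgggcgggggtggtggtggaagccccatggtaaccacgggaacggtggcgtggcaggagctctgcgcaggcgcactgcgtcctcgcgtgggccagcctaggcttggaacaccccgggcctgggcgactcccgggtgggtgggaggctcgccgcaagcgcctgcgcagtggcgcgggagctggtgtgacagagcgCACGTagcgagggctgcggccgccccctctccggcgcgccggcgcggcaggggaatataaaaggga
P4ha2 (chr11:54100674-54100973, plus strand): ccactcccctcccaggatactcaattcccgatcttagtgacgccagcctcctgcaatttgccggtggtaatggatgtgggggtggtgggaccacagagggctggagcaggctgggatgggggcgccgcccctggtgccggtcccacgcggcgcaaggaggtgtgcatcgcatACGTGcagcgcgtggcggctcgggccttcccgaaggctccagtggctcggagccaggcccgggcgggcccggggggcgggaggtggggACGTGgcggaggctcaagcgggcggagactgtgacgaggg
Windows were given for 5 of the 10 genes. The motif was found in 3 of these, once on the opposite strand in P4ha1 and Serpinh1 and at 2 places on the gene's own strand in P4ha2, and its letters were not in the windows of Plod1 and Loxl4. Of all 32851 windows of this length, 19.6% hold ACGTG on either strand, and 36.4% of those also hold CACGTG, the E-box of other factors, which overlaps it. A match is a stretch of letters and no evidence of binding.

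Plod1 and Plod2 encode lysyl hydroxylases: Plod1 acts mainly on lysines of the helix, and Plod2 on those of the telopeptides at the chain ends. Plod1 (chr4:147909753-147936767, minus strand) held 7.09, 7.61 and 7.25 FPKM in oxidized libraries A, B and C, against 5.06, 4.63 and 4.97 FPKM in reduced libraries A, B and C. The libraries of each group lay close together and the groups did not overlap. The means were 7.31 ± 0.265 FPKM in oxidized cells, against 4.89 ± 0.225 FPKM in reduced cells (SD, n = 3 each). The log2 difference of Plod1 was 0.50 (SE 0.14, 95% interval 0.17 to 0.83), with a limma adjusted p of 0.132, so it did not pass.

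Plod2 (chr9:92542223-92608428, plus strand) was at 10.4, 9.36 and 2.68 FPKM in oxidized libraries A, B and C, against 3.24, 4.35 and 2.23 FPKM in reduced libraries A, B and C. Oxidized A and B were high, and oxidized C lay among the reduced libraries. The log2 difference was 0.85 (SE 0.41, 95% interval -0.07 to 1.78, limma adjusted p = 0.291), and within populations it was 1.43 in A, 0.95 in B and 0.18 in C. Without oxidized C it was 1.38 (adjusted p = 0.00729), in the fit that called 1185 of the 12191 tested genes. Oxidized C alone lay -0.19 from the mean of the 3 reduced libraries, although it was above the reduced library of its own population. Markers of primitive erythroid cells summed to 609 FPKM in oxidized C and 625 FPKM in reduced C, against 28.7 to 79.1 FPKM in the other 4 libraries, and their part in the low Plod2 of population C was not tested. The log2 ratio of Plod2 to Plod1 differed by 0.36 between groups (exact permutation p = 0.6, adjusted 0.6), and by 0.042 to 0.87 when single libraries were left out.

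Serpinh1 (chr7:99345376-99353239, minus strand), the most abundant of the 10, was at 63.5, 79.8 and 52.0 FPKM in oxidized libraries A, B and C, against 71.7, 35.5 and 42.6 FPKM in reduced libraries A, B and C. The groups overlapped, and population A ran the other way from B and C, with differences of -0.17, 1.15 and 0.28 on the log2 scale in A, B and C. The log2 difference over all libraries was 0.42 (SE 0.27, 95% interval -0.20 to 1.04, limma adjusted p = 0.420). It was 0.71 without reduced A, 0.21 without reduced B and 0.26 without oxidized B, and 0.12 without oxidized A and B together.

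**Figure D3:**
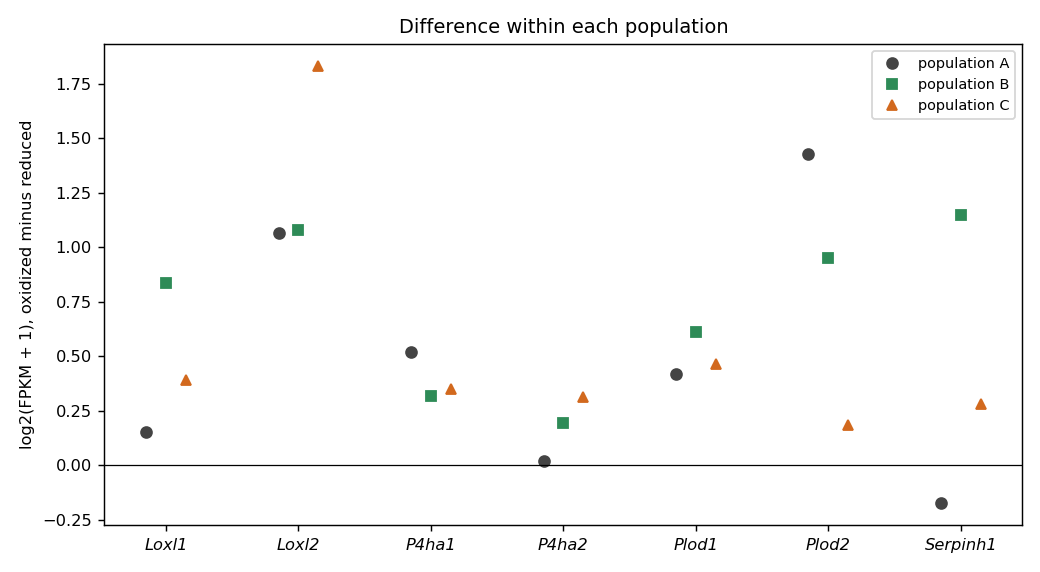
Difference in log2(FPKM + 1), oxidized minus reduced, within each population for the 7 tested genes. Loxl2 lies between 1.07 and 1.83 in all 3 populations, Plod2 runs between 0.18 (C) and 1.43 (A), and Serpinh1 has populations on both sides of 0.

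FPKM is scaled to transcript length, so levels can be ranked between genes. In oxidized cells the order of mean FPKM was Serpinh1, P4ha1, P4ha2, Loxl2, Plod2, Plod1, Loxl1, Loxl3, Loxl4 and Lox. Neighbours whose libraries overlapped were P4ha2 with Loxl2, Loxl2 with Plod2, Plod2 with Plod1, Loxl1 with Loxl3, and Loxl4 with Lox. In reduced cells Loxl2 came below Plod1, in the order Serpinh1, P4ha1, P4ha2, Plod1, Loxl2, Plod2, Loxl1, Loxl3, Loxl4 and Lox. There Plod1 with Loxl2, Loxl2 with Plod2, Loxl1 with Loxl3 and Loxl3 with Loxl4 overlapped.

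Of 13 other listed enzymes and chaperones that act on collagen chains, 12 could be tested, and all 12 were higher on the mean in oxidized cells. Limma called 0 of them, and it called 0.517% of all tested genes higher. Of these 12, 10 had an unadjusted p under 0.05, as had 19.4% of all tested genes. Their median log2 difference was 0.65, against 0.08 over all tested genes. Of the 13, 4 are marked significant and up in the authors' deposited table, as are 1.23% of all genes. Every oxidized library lay above every reduced library in 10 of the 13, as in 10.3% of all genes above 0 in any library. Fkbp10 encodes a prolyl isomerase chaperone that assists lysyl hydroxylation of the telopeptides. It averaged 21.2 ± 0.750 FPKM in oxidized cells, against 10.7 ± 2.29 FPKM in reduced cells (SD, n = 3 each). The log2 difference was 0.95 (SE 0.18, limma adjusted p = 0.0592). Fkbp10 overlaps Nt5c3b on the other strand, at 22.0 FPKM in oxidized cells, against 22.1 FPKM in reduced cells, so its values may hold fragments of Nt5c3b. P3h3, a prolyl 3-hydroxylase family gene needed for lysine hydroxylation of collagen, averaged 2.92 ± 0.178 FPKM in oxidized cells, against 1.15 ± 0.465 FPKM in reduced cells, a difference of 0.89 (adjusted p = 0.0853). P4hb, the protein disulfide isomerase that serves as the beta subunit, was the most abundant at 222 ± 21.3 FPKM in oxidized cells, against 192 ± 13.3 FPKM in reduced cells (log2 difference 0.21, adjusted p = 0.492).

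Colgalt1, which puts galactose on hydroxylysine and was singled out after its values were seen, held 42.5, 51.2 and 15.0 FPKM in oxidized libraries A, B and C, against 12.5, 9.81 and 11.5 FPKM in reduced libraries A, B and C. Its oxidized A and B libraries were far above oxidized C, as for Plod2. Its log2 difference was 1.44 (SE 0.39, limma adjusted p = 0.119), 1.96 without oxidized C (adjusted p = 0.000768) and 0.39 without oxidized A and B. The third lysyl hydroxylase, Plod3, was at 8.92, 13.6 and 7.66 FPKM in oxidized libraries A, B and C and at 5.64, 4.81 and 6.59 FPKM in reduced libraries A, B and C (log2 difference 0.70, adjusted p = 0.152). Without oxidized C the difference of Plod3 was 0.86 (adjusted p = 0.0392), and without oxidized A and B it was 0.38. The fit without oxidized C called 1185 of the 12191 tested genes. Plod3 too was chosen for display after its values were seen.

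**Figure D4:**
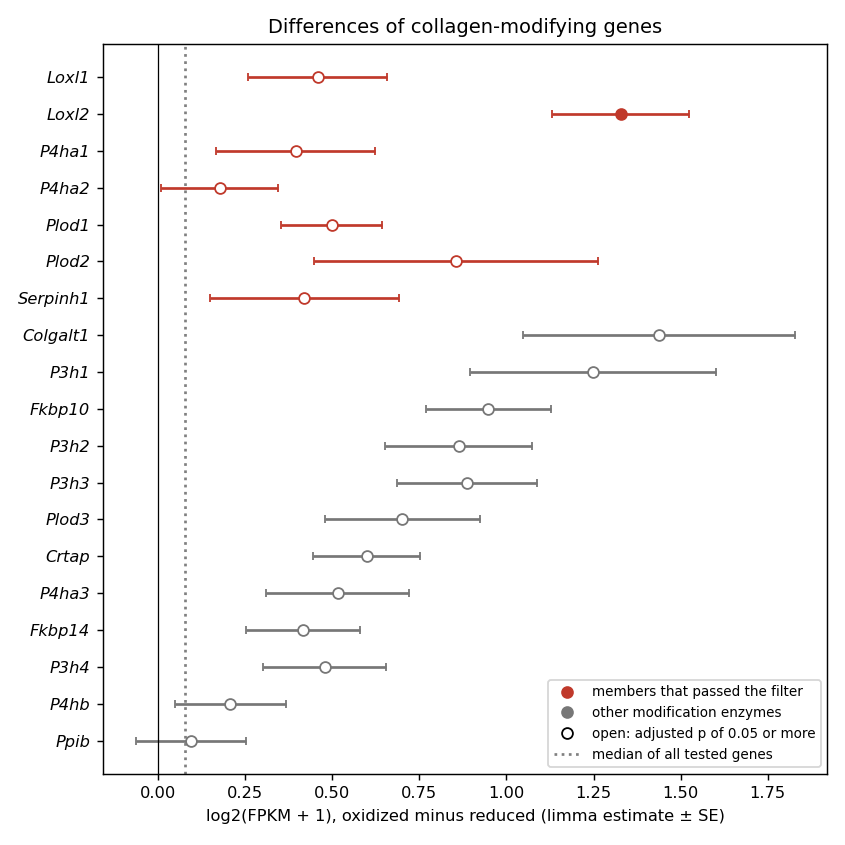
Log2 differences, oxidized minus reduced, with their SE, for the 7 tested genes (red) and the 12 other tested enzymes and chaperones of collagen (grey). Filled points are below an adjusted p of 0.05, which holds for Loxl2 alone, and the dotted line at 0.08 is the median of all tested genes.

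Among the collagen and elastic fibre genes that these enzymes act on or work beside, limma called 5 higher in oxidized cells. Only these are said to rise here. Of all tested genes 0.517% were called higher. The next paragraph gives fits in which these 5 calls were lost. Of the 9 fibrillar collagen chains 5 could be tested and 1 rose, Col3a1, at 10.8 ± 3.28 FPKM in oxidized cells, against 2.61 ± 1.02 FPKM in reduced cells (SD, n = 3 each, log2 difference 1.70, limma adjusted p = 0.0380). Col2a1 (difference 1.47, adjusted p = 0.109) and the most abundant chain, Col1a1 (0.64, adjusted p = 0.325), did not pass. Of the collagen IV chains and the peroxidasin that cross-links them, 3 of 7 could be tested and Col4a2 rose, at 14.3 ± 2.71 FPKM in oxidized cells, against 5.12 ± 0.371 FPKM in reduced cells (difference 1.31, adjusted p = 0.0273). Its partner chain Col4a1 averaged 14.2 FPKM in oxidized cells, against 7.26 FPKM in reduced cells (0.85, adjusted p = 0.103). Of the 10 genes of elastin and elastic fibre assembly 7 could be tested and 3 rose: the microfibril genes Mfap2 and Mfap4, and Emilin1, which encodes an elastic fibre glycoprotein. Mfap2 averaged 28.1 ± 7.93 FPKM in oxidized cells, against 8.32 ± 2.62 FPKM in reduced cells (1.65, adjusted p = 0.0392). Mfap4 averaged 20.2 ± 3.14 FPKM in oxidized cells, against 6.77 ± 1.83 FPKM in reduced cells (1.47, adjusted p = 0.0330). Emilin1 averaged 14.5 ± 2.64 FPKM in oxidized cells, against 4.51 ± 1.44 FPKM in reduced cells (1.51, adjusted p = 0.0347).

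All 5 of these calls were lost in the fit with the population as a block, with adjusted p-values of 0.0613 for Col3a1 and Emilin1, 0.0665 for Col4a2, 0.0753 for Mfap4 and 0.0902 for Mfap2. They were also lost when any of oxidized A, oxidized B, reduced A or reduced B was left out. Without oxidized C 16 of the 70 tested genes of the 9 lists were called higher, as were 884 of all 12191 tested genes. Col3a1, Col4a2 and Mfap4 overlap other genes of the table, so their values may hold fragments of these.

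Relative to the collagen chains, no class of enzyme could pass the exact permutation test, whose smallest p with 3 against 3 is 0.1, so the differences are given as sizes. The summed FPKM of the fibrillar and type IV chains was 55.7, 81.7 and 84.7 in oxidized libraries A, B and C, against 34.0, 28.3 and 41.3 in reduced libraries A, B and C. The log2 ratio of the lysyl oxidases to this sum was -2.27 ± 0.16 in oxidized and -2.53 ± 0.44 in reduced libraries (SD, n = 3 each), a difference of 0.26 (exact permutation p = 0.6, adjusted over 3 collagen ratios 0.6). Without reduced C that difference was 0.025, and without reduced B it was 0.46. For P4ha1, P4ha2, Plod1 and Plod2 summed, it was -0.32 ± 0.57 in oxidized and 0.33 ± 0.41 in reduced libraries, a difference of -0.64 (exact permutation p = 0.2, adjusted 0.3). For Serpinh1 it was -0.18 ± 0.46 in oxidized and 0.48 ± 0.53 in reduced libraries, a difference of -0.66 (exact permutation p = 0.2, adjusted 0.3). The groups overlapped in all 3 ratios, and with 3 libraries a group these p-values do not show that the ratios are alike.

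**Figure D5:**
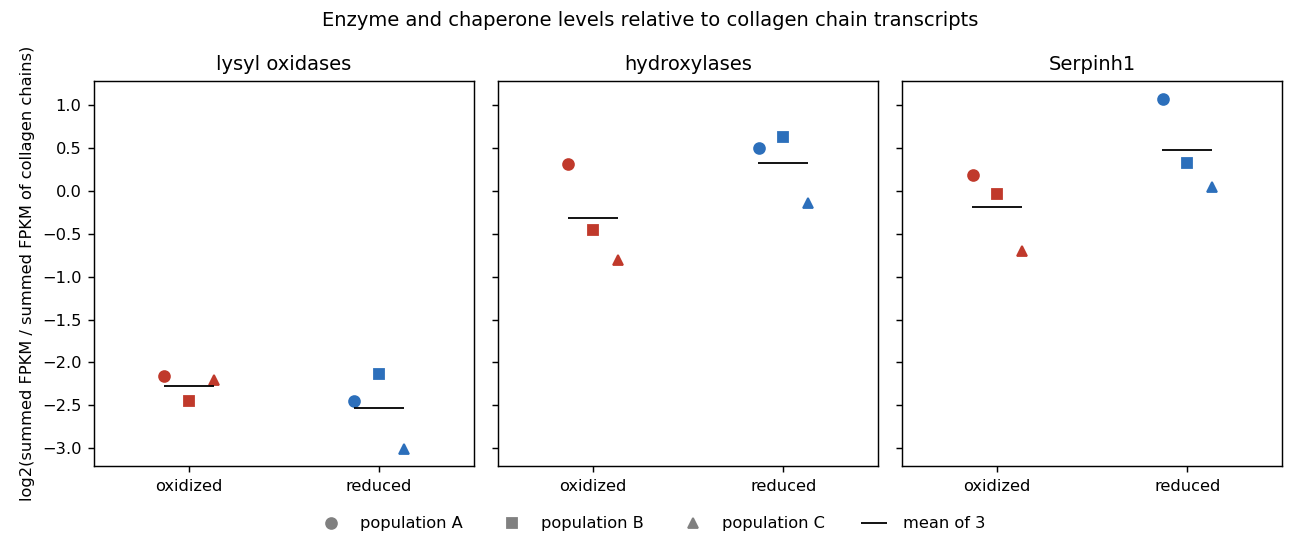
Log2 ratio of the summed FPKM of the lysyl oxidases, the hydroxylases (P4ha1, P4ha2, Plod1, Plod2) and Serpinh1 to the summed FPKM of the collagen chains, oxidized left of reduced, with shapes for populations and a line for the mean of 3. The lysyl oxidase points overlap around means of -2.27 and -2.53, and the hydroxylase and Serpinh1 means are the lower in oxidized libraries by 0.64 and 0.66.

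Genes for the steps around these enzymes gave no calls, which says little in lists this small. Of all tested genes 0.796% were called, and 19.4% had an unadjusted p under 0.05. For procollagen and lysyl oxidase propeptide processing, 4 of 8 genes could be tested, 3 were positive and limma called 0, with 2 at an unadjusted p under 0.05 and 0 marked significant in the authors' deposited table. Bmp1, the protease that releases the propeptides of procollagen and of lysyl oxidase, averaged 4.05 FPKM in oxidized cells, against 2.06 FPKM in reduced cells (log2 difference 0.73, adjusted p = 0.141), and its enhancer Pcolce averaged 14.8 FPKM in oxidized cells, against 8.44 FPKM in reduced cells (0.76, adjusted p = 0.131). Of 11 genes for the export of procollagen from the endoplasmic reticulum 7 were positive and 4 negative, limma called 0, 1 had an unadjusted p under 0.05 and 0 are significant in the authors' deposited table. Among them the transcription factor genes Creb3l2 and Creb3l1 differed by 0.55 and 0.56 (adjusted p = 0.190 and 0.316), and the coat protein gene Sec13, the most abundant, was at 130 FPKM in oxidized cells, against 128 FPKM in reduced cells.

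The supply of cofactors showed no called gene either, again in small lists. Over all tested genes the share called was 0.796%, and the share with an unadjusted p under 0.05 was 19.4%. Of 7 genes for ascorbate and copper supply 5 could be tested, 2 were positive and 3 negative, and limma called 0, with 0 at an unadjusted p under 0.05 and 0 significant in the authors' deposited table. Gulo, the last enzyme of ascorbate synthesis in mice, differed by -0.39 (adjusted p = 0.356), the ascorbate transporter gene Slc23a2 by -0.23 (adjusted p = 0.507), and the copper chaperone gene Atox1 averaged 147 FPKM in oxidized cells, against 121 FPKM in reduced cells (0.31, adjusted p = 0.514). The 8 other genes of 2-oxoglutarate-dependent hydroxylases had a median of 0.19 and limma called 0, with 0 at an unadjusted p under 0.05 and 0 significant in the authors' deposited table. The oxygen-sensing prolyl hydroxylase gene Egln1 averaged 47.4 FPKM in oxidized cells, against 40.6 FPKM in reduced cells (0.22, adjusted p = 0.458). The related Egln2 (0.36, adjusted p = 0.319) and P4htm (0.33, adjusted p = 0.315) did not pass.

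Hypoxia response genes, the class to which P4ha1, P4ha2 and Plod2 are usually assigned, gave no call in either direction. Of 19 listed genes 18 were found by symbol and 17 could be tested, 9 positive and 8 negative, with a median of 0.09. Limma called 0 of these 17 and 0.796% of all tested genes, so 0 calls in a list of this size says little. An unadjusted p under 0.05 was reached by 1 higher and 1 lower gene, and 0 are significant in the authors' deposited table. Ndrg1 averaged 5.19 FPKM in oxidized cells, against 8.79 FPKM in reduced cells (log2 difference -0.63, adjusted p = 0.154), and Vegfa 8.17 FPKM in oxidized cells, against 5.42 FPKM in reduced cells (0.50, adjusted p = 0.187). The glycolytic gene Ldha was the most abundant, at 1550 FPKM in oxidized cells, against 1393 FPKM in reduced cells (0.15, adjusted p = 0.711).

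Summed markers of endoderm, a layer that lays down basement membrane, lay above the reduced range in every oxidized library. Those of mesenchyme overlapped between groups but were the higher in oxidized cells within each population, at 82.0, 71.5 and 149 FPKM in oxidized libraries A, B and C, against 70.3, 64.7 and 92.0 FPKM in reduced libraries A, B and C. The 10 markers of visceral and parietal endoderm summed to 32.7 to 41.3 FPKM in oxidized and 12.6 to 17.6 FPKM in reduced libraries, with 8 of 10 not overlapping between groups, 0 called by limma, 7 at an unadjusted p under 0.05 and 5 significant and up in the authors' deposited table. Among them Gata6, chosen after its values were seen, was at 6.25, 5.56 and 10.5 FPKM in oxidized libraries A, B and C, against 2.76, 1.93 and 4.64 FPKM in reduced libraries A, B and C. In 4 of the 9 mesenchyme markers every oxidized library lay above every reduced one. Of the 4 that could be tested limma called 0, and 2 had an unadjusted p under 0.05, while 1 of the 9 is significant and up in the authors' deposited table. Oxidized libraries all lay above reduced ones in 10.3% of genes above 0 in any library. An unadjusted p under 0.05 was reached by 19.4% of all tested genes, and 1.23% of all genes are marked significant and up. Of both lists, Afp alone was listed at 0, in reduced C. The 5 primitive streak markers ran the other way, at 40.8 to 54.1 FPKM in oxidized and 77.6 to 93.4 FPKM in reduced libraries. Of them 1, T, was called lower by limma (adjusted p = 0.0158), as were 0.279% of all tested genes. That call was lost with the population block (0.0601). Cardiomyocyte markers summed to 15.5 to 19.4 FPKM in oxidized and 8.41 to 11.9 FPKM in reduced libraries. Of these 5, oxidized libraries all lay above reduced ones in 2, 2 had an unadjusted p under 0.05, and 1 is significant and up in the authors' deposited table. Myl7 was lower on the mean. Neural markers summed to 13.2 to 21.5 FPKM in oxidized and 11.2 to 12.2 FPKM in reduced libraries. For these 5 the same counts were 2, 2 and 2, and Tubb3 was lower on the mean. Limma called 0 in both lists. Endothelial markers overlapped, at 9.45 to 13.1 FPKM in oxidized and 10.6 to 11.5 FPKM in reduced libraries. The part of these cell types in the difference of Loxl2 was not tested.

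Over the 6 libraries, genes whose log2(FPKM + 1) ran most like that of Loxl2 included Vegfc (Pearson r = 0.991), a lymphatic growth factor gene, Papss1 (0.988), which makes the sulfate donor used for proteoglycans, the nuclear membrane gene Tmem43 (0.977) and Reck (0.964), a membrane-anchored inhibitor of metalloproteases. They were chosen among 6552 genes averaging 5 FPKM or more, of which 11 reached an r of 0.95. The libraries share the group difference, so these values are a description with no test. Vegfc was at 11.1, 11.9 and 15.0 FPKM in oxidized libraries A, B and C and at 6.08, 6.95 and 6.61 FPKM in reduced libraries A, B and C (log2 difference 0.85, limma adjusted p = 0.0612). Like Loxl2, it had its highest value in oxidized C. Among the 10 genes, Plod1 was the most like Loxl2 (r = 0.93), followed by Loxl1 (0.70) and P4ha2 (0.58), and Serpinh1 was the least like it of those tested (0.39).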

How the data were processed

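The 10 genes and all gene lists were chosen with earlier results of these data known. The authors deposited 1 table of FPKM values per gene and library, with their own linear ratio (fold) of oxidized to reduced means, its log2, and p-values and q-values of their own test, per the file headers. Tools listed in the submitters' processing notes, with no version or role, are HISAT2, StringTie, edgeR, cutadapt and FastQC, and the build is mm10. FPKM values are not counts: of low values 31.5% to 34.9% fell on whole-read steps (within 2%), so reads could not be recovered and no count test was run. The same steps gave the estimated depth of 1.18e+07 to 1.79e+07 fragments, which limits low genes most in population C.

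limma 3.58.1 in R 4.3.3 compared the groups on log2(FPKM + 1), for 12191 genes averaging 1 FPKM or more, with a mean-variance trend and no covariate. Genes below a Benjamini-Hochberg adjusted p of 0.05, two-sided, were called, and every adjusted p of a gene is limma's. Differences on the log2 scale subtract reduced from oxidized and understate the change of low genes. On simulated data, 53 of 100 genes with a log2 change of 1 and 87 of 100 with a change of 2 were recovered. The simulated noise was independent between genes and libraries. It held no shared shift like that of oxidized A and B, so these rates may not hold for the real libraries. Ratios (5 between isoenzymes, 3 to collagen chains) were tested by exact permutation (scipy 1.17.1) and adjusted within each family.

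The population letter pairs the libraries, since the series' design text has both groups sorted from 1 set of populations. Deviations from the group means correlated at -0.06 within A, 0.07 within B and 0.20 within C. Alternatives were that block, median-ratio scaling, quantile normalization, no trend, no filter, a filter at 5 FPKM, a pseudocount of 0.1, no pseudocount (ratios) and leaving out each library. Leaving out oxidized A and B together was added after seeing the data. Genes were named by rule: all 10, and of each pathway list the called genes, the 2 with the smallest p and the most abundant, with 5 genes most like Loxl2, of which 1 is not reported here. Others are named as chosen after their values were seen. Coordinates and overlaps are from GENCODE vM21 (GRCm38).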

Additional observations from a re-analysis of the deposited data

How the results depend on the processing

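The comparison is limited by 3 libraries a group, by oxidized A and B standing apart, and by FPKM without counts. Main counts were 63 genes called higher and 34 lower over all genes, 1 higher among the 10 genes (Loxl2), and 5 higher and 0 lower in the other collagen lists. With the population letter as a replicate block these were 2 and 2, 0, and 0 higher in the lists, and the difference of Loxl2 was 1.33 with an adjusted p of 0.0753. With no filter on low values they were 1 and 0, 0, and 0, with 1.33 for Loxl2. With a mean of at least 5 FPKM 21 genes were called lower. Without oxidized A and B together, with 1 oxidized library left and the spread taken from the reduced ones, they were 3 and 1, 0, and 0, with 1.69 for Loxl2, -0.19 for Plod2 and -0.083 for Ldha, the last 2 on the other side of 0. Leaving out single libraries gave 1 to 884 genes higher and 2 to 301 lower, 0 to 2 of the 10 genes, and 0 to 16 list genes higher and 0 to 1 lower. Over these leave-one-out fits Loxl2 ran between 1.15 and 1.46 and Plod2 between 0.56 and 1.38. Sec13 changed sign, at -0.078 with median-ratio scaling, -0.056 with quantile normalization and -0.10 to 0.12 over single libraries left out. The highest counts came without oxidized C, where 1185 genes were called, all 97 of the main calls among them. The block changed no other call of the 10 genes. Loxl1, P4ha1, P4ha2, Plod1 and Serpinh1 stayed positive and not called in all alternatives run, with sizes that moved from 0.39 to 0.014 for P4ha1 and from 0.42 to 0.12 for Serpinh1 without oxidized A and B. The 66 alternative values of the ratios kept their sign, but no ratio could pass the threshold with 3 libraries a group. The cause of these shifts was not tested.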
